A study of Homo sapiens with 6 samples.

Results

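The mitochondrial genes for cytochrome c oxidase (MT-CO1, MT-CO2, MT-CO3), ATP synthase (MT-ATP6, MT-ATP8), cytochrome b (MT-CYB) and the ribosomal RNAs (MT-RNR1, MT-RNR2), together with the nuclear copies MTCO1P12 and MTATP6P1, make up a set of 10 genes chosen by name and matched by Ensembl identifier. Values existed for 8 of the 10 in a table of 16834 genes, namely the 6 mRNAs and the 2 nuclear copies. MT-RNR1 and MT-RNR2 were not analysed here. The libraries were ribosome-tag immunoprecipitations (IPs) from asynchronous HEK293-T Flp-In cells, a human embryonic kidney line with a single integration site for a transgene. All 6 came from cells that stably expressed ccTaggedRP, a bicistronic construct in which the CAG promoter drives mouse RPL10a both as Flag-RPL10a-hCdt and as HA-RPL10a-hGem. The hCdt degron was designed to keep the Flag protein in G1/S, and the hGem degron to keep the HA protein in S/G2/M. The 3 Flag-IPs were compared with the 3 HA-IPs to ask which RNAs differed between the 2 tags. No agent other than the drug selection of the line was given, and no input or mock-IP library was analysed here. The labels do not say whether replicates were separate cultures, so p-values measure only the spread between these samples, which may be technical.

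Mitochondria keep a small genome that is transcribed as long precursors from which tRNAs, rRNAs and mRNAs are cut. The mRNAs are translated inside the organelle, on mitochondrial ribosomes built on MT-RNR1 and MT-RNR2, whereas RPL10a belongs to the large subunit of the cytosolic ribosome. Cytochrome c oxidase (complex IV) passes electrons to oxygen, cytochrome b carries electrons through complex III, and the ATP synthase makes ATP from the proton gradient that the respiratory chain builds. Each of these complexes also holds subunits that are encoded in the nucleus, and the nuclear genome carries old insertions of mitochondrial DNA such as MTCO1P12 and MTATP6P1.

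The 6 mRNA genes all lie on the plus strand of the mitochondrial genome (GRCh38/hg38, 16569 bases). MT-CO1 spans chrM:5904-7445, MT-CO2 chrM:7586-8269, MT-ATP8 chrM:8366-8572, MT-ATP6 chrM:8527-9207, MT-CO3 chrM:9207-9990 and MT-CYB chrM:14747-15887. Each gene is a single exon in GENCODE release 44. MT-ATP8 and MT-ATP6 share 46 bases, which are 22.2% of MT-ATP8 and 6.75% of MT-ATP6, so a read within the shared bases could have come from either reading frame. The overlap is shown in capitals within chrM:8507-8592, from the start codon of MT-ATP6 to the stop codon of MT-ATP8, with flanks in lower case.
MT-ATP8 and MT-ATP6: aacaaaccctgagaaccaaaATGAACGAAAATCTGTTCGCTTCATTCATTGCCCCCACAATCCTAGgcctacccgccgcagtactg
MT-ATP6 and MT-CO3 share a single base, printed as the capital within chrM:9177-9237, which ends the stop codon of the one and opens the start codon of the other.
MT-ATP6 and MT-CO3: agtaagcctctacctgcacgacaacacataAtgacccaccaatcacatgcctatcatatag

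The 3′ ends of the genes differ in how the stop codon is written. The last 30 bases are shown for a gene with a whole stop codon and for the 2 genes that end in a lone T, with the final codon or its part in capitals.
MT-CO2: tttgaaatagggcccgtatttaccctaTAG
MT-CO3: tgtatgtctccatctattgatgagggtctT
MT-CYB: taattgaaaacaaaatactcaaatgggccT
In human mitochondria such a lone T is completed to a stop codon by the poly(A) tail, which is background and was not measured here.

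MTCO1P12 (ENSG00000237973, chr1:631074-632616) and MTATP6P1 (ENSG00000248527, chr1:633696-634376) are annotated pseudogenes on chromosome 1. MTCO1P12 matched MT-CO1 at 1522 of 1542 aligned bases (98.7%), with 20 substitutions and 1 gap base. MTATP6P1 matched MT-ATP6 at 671 of 681 bases (98.5%), with 10 substitutions. The 90 bases of each pair that hold the most differences are printed with the differing bases in capitals, at chrM:6210-6299 and chr1:631380-631469 for the first pair and at chrM:8629-8718 and chr1:633798-633887 for the second.
MT-CO1: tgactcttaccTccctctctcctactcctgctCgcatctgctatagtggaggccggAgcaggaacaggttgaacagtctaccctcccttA
MTCO1P12: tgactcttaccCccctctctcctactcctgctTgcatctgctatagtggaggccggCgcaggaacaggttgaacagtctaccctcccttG
MT-ATP6: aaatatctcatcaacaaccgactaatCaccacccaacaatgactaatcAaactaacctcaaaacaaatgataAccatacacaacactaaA
MTATP6P1: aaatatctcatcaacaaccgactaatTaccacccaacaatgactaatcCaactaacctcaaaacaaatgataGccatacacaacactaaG
Counted from the first base of the mitochondrial gene, with its base given first, these substitutions were T318C, C339T, A363C and A396G in MTCO1P12 and C129T, A151C, A175G and A192G in MTATP6P1. The longest stretch without a difference was 245 bases in MT-CO1 and 141 bases in MT-ATP6. Of all windows of 150 bases, the read length, 202 of 1394 in MT-CO1 (14.5%) and 0 of 532 in MT-ATP6 were identical in the copy. The level of MTCO1P12 is therefore uncertain, since reads of that pair can be assigned to the wrong partner. In the MTATP6P1 pair an untrimmed read within the gene spans at least 1 difference between the reference sequences. The mitochondrial sequence of these cells was not examined, and where it differs from the reference, untrimmed reads could match both partners too. Reads trimmed to 141 bases or fewer could still match both partners, so the level of MTATP6P1 is not certain either.

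Read totals over the table ranged from 23174532 to 33429519 in the Flag-IPs and from 28737728 to 44134833 in the HA-IPs, and the fewest reads on any of the 8 genes in a library was 71, on MTCO1P12. HEK293-T markers were present, with KRT8 between 9904 and 11240 normalized counts and VIM between 21676 and 27005, and the 7 markers summed to 0.151 to 0.169% of the Flag-IPs and 0.158 to 0.167% of the HA-IPs. Values are normalized counts, meaning reads divided by a size factor for each library. Differences are log2 fold changes of normalized counts plus 1, HA-IP over Flag-IP, from limma fitted to all 16834 genes, with p-values adjusted by the Benjamini-Hochberg method over all of them. A gene was called at an adjusted p of at most 0.05.

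All 6 mRNAs were higher in the Flag-IPs. They passed the test in the limma fit, with fold changes of the group means between 1.74 and 1.94. Of the 8 genes, 7 were called with the Flag-IPs higher and 0 with the HA-IPs higher, beside 7.10% and 5.79% of all genes. Calls higher in the Flag-IPs were 55.1% of all calls, and 77.0% with all libraries brought to equal totals, where 8 of the 8 genes were called. The median log2 fold change of the 8 genes was -0.83, beside -0.00 over all genes. The lowest Flag-IP lay above the highest HA-IP for 8 of 8 genes, beside 16.1% of all genes. In these bulk IPs, fewer cells of a type and less RNA per cell cannot be told apart.

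**Figure D1:**
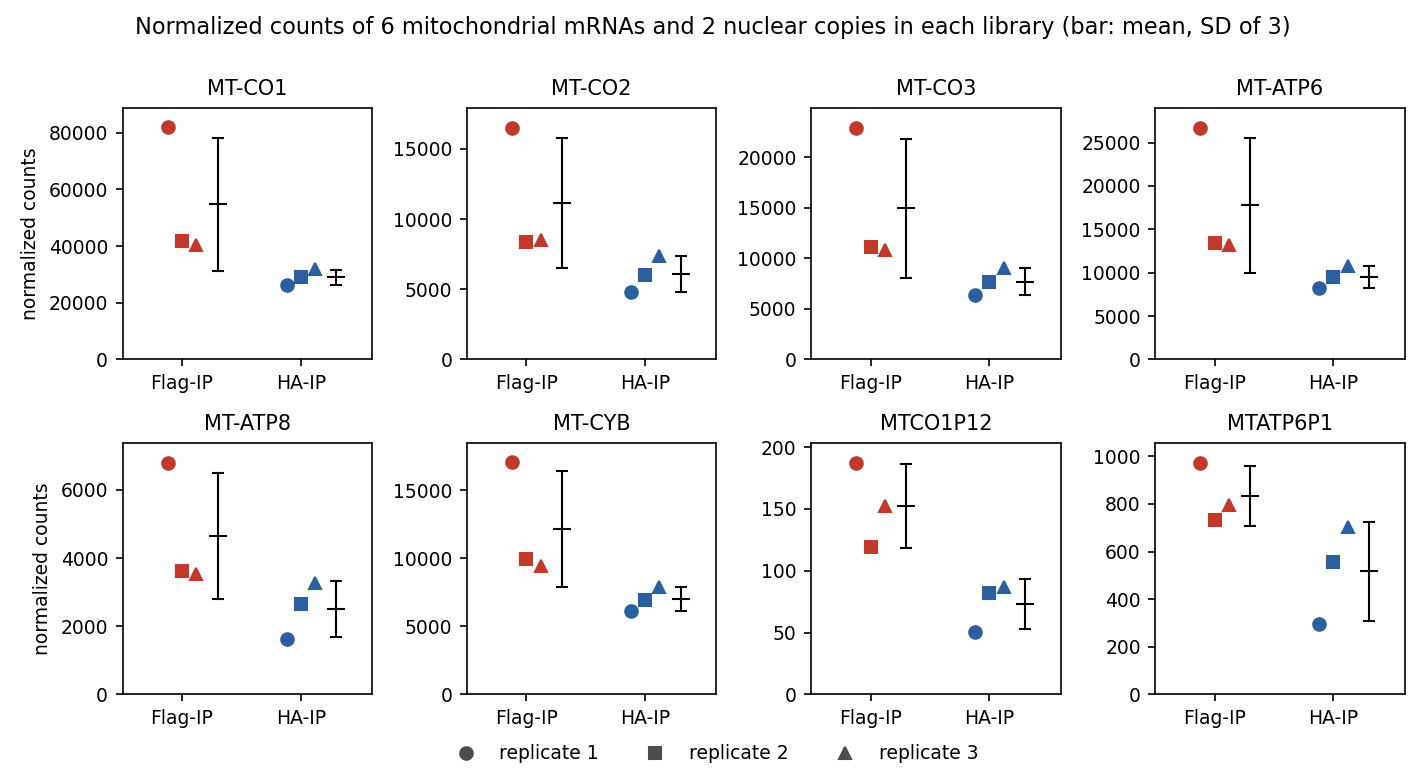
Normalized counts (linear axis from 0) of the 6 mitochondrial mRNAs and 2 nuclear copies in the 3 Flag-IPs (red) and 3 HA-IPs (blue), with the mean and SD of each group at its right. Replicate 1 of the Flag-IPs stands above the other Flag-IPs in each panel, by 1.76 to 2.09 times for the mRNAs, and the groups do not overlap in any of the 8 panels.

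MT-CO1 (ENSG00000198804) encodes the catalytic core subunit of cytochrome c oxidase, with the haem and copper site where oxygen is reduced. Across replicates 1 to 3 in turn, its normalized counts were 81873, 41864 and 40324 for the Flag tag, against 26398, 28976 and 31740 for the HA tag. The first Flag-IP was 1.99 times the mean of the other two, which were close together, and the lowest Flag-IP was 1.27 times the highest HA-IP. The means were 54687 ± 23556 and 29038 ± 2672 (SD, n = 3), and the log2 fold change was -0.84 (SE 0.21, 95% interval -1.29 to -0.38, limma adjusted p = 0.023).

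MT-CO2 (ENSG00000198712) encodes the subunit that takes electrons from cytochrome c. Its normalized counts were 16507, 8375 and 8543 in the Flag-IPs, against 4793, 6041 and 7347 in the HA-IPs. Here the gap between the groups was narrower, the lowest Flag-IP being 1.14 times the highest HA-IP. The means were 11142 ± 4647 and 6061 ± 1277 (SD, n = 3), with a log2 fold change of -0.82 (SE 0.22, limma adjusted p = 0.032).

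MT-CO3 (ENSG00000198938) encodes the remaining mitochondrial subunit of the oxidase core, which binds no metal. Its counts were 22923, 11132 and 10840 in the Flag-IPs, against 6402, 7654 and 9028 in the HA-IPs. It had the widest step between Flag-IP replicate 1 and its companions, 2.09 times their mean. The log2 fold change was -0.88 (SE 0.23, 95% interval -1.38 to -0.38, limma adjusted p = 0.029), from means of 14965 ± 6893 and 7694 ± 1314 (SD, n = 3).

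MT-ATP6 (ENSG00000198899) encodes the membrane subunit that forms the proton path of the ATP synthase. It had 26721, 13385 and 13163 normalized counts in the Flag-IPs, against 8210, 9519 and 10815 in the HA-IPs. The pattern across libraries was that of MT-CO1, with 1 high Flag-IP and 2 that were alike. Means of 17757 ± 7764 and 9515 ± 1303 (SD, n = 3) gave a log2 fold change of -0.83 (SE 0.21, limma adjusted p = 0.028).

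MT-ATP8 (ENSG00000228253) encodes a small subunit of the same membrane part and is read from the same bicistronic mRNA as MT-ATP6. Its counts were 6775, 3624 and 3548 in the Flag-IPs, against 1619, 2652 and 3256 in the HA-IPs. HA-IP replicate 1 was low against the other HA-IPs, and the lowest Flag-IP was only 1.09 times the highest HA-IP. The log2 fold change was -0.88 (SE 0.26, 95% interval -1.44 to -0.32), and the limma adjusted p of 0.045 was the closest to the threshold among the called genes of the set.

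MT-CYB (ENSG00000198727) encodes the one mitochondrial subunit of complex III. Its normalized counts were 17077, 9940 and 9441 in the Flag-IPs, against 6123, 6957 and 7883 in the HA-IPs. Among the mRNAs its first Flag-IP stood least apart, at 1.76 times the mean of the others. The means were 12153 ± 4272 and 6987 ± 881 (SD, n = 3), with a log2 fold change of -0.75 (SE 0.18, 95% interval -1.14 to -0.36, limma adjusted p = 0.019).

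The nuclear copies stood far below their mitochondrial partners. MTCO1P12 had 187, 119 and 152 normalized counts in the Flag-IPs, against 50.1, 82.2 and 87.1 in the HA-IPs, with a log2 fold change of -1.07 (SE 0.23, limma adjusted p = 0.013). MTATP6P1 had 973, 732 and 797 in the Flag-IPs, against 294, 555 and 704 in the HA-IPs, so that its lowest Flag-IP was 1.04 times its highest HA-IP. Its log2 fold change was -0.77 (SE 0.24, 95% interval -1.30 to -0.24), and it did not pass the test (limma adjusted p = 0.061). In both copies Flag-IP replicate 1 stood less far above the other Flag-IPs than in the mRNAs, at 1.38 and 1.27 times their mean.

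The calls depended on the test and on single libraries. The edgeR quasi-likelihood test on the recovered reads called the same 7 genes, beside 7.31% of all genes called higher in the Flag-IPs. DESeq2 on those reads gave log2 fold changes between -1.08 and -0.69 for the 8 genes but called 1, MTCO1P12 (7.31% of all genes had calls in that direction), the adjusted p-values of the other 7 running from 0.068 to 0.25 and 7 of the 8 genes having an unadjusted p under 0.05. Without Flag-IP replicate 1 the same 7 genes were called (beside 6.75% of all genes called higher in the Flag-IPs), but the median of the 8 moved to -0.52. The change of MT-CO1 was then -0.50 (SE 0.067, limma adjusted p = 2.4e-04) and that of MT-ATP8 -0.57 (SE 0.18, adjusted p = 0.048). Without HA-IP replicate 1 the limma fit called 0 of the 8 genes (adjusted p of MTCO1P12 0.056 and of MT-CO1 0.11), and without HA-IP replicate 2 it called 1, MTCO1P12. Those fits called 3.30% and 3.75% of all genes higher in the Flag-IPs. At an unadjusted limma p under 0.05, 8 of the 8 genes passed in each of those 2 fits.

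**Figure D2:**
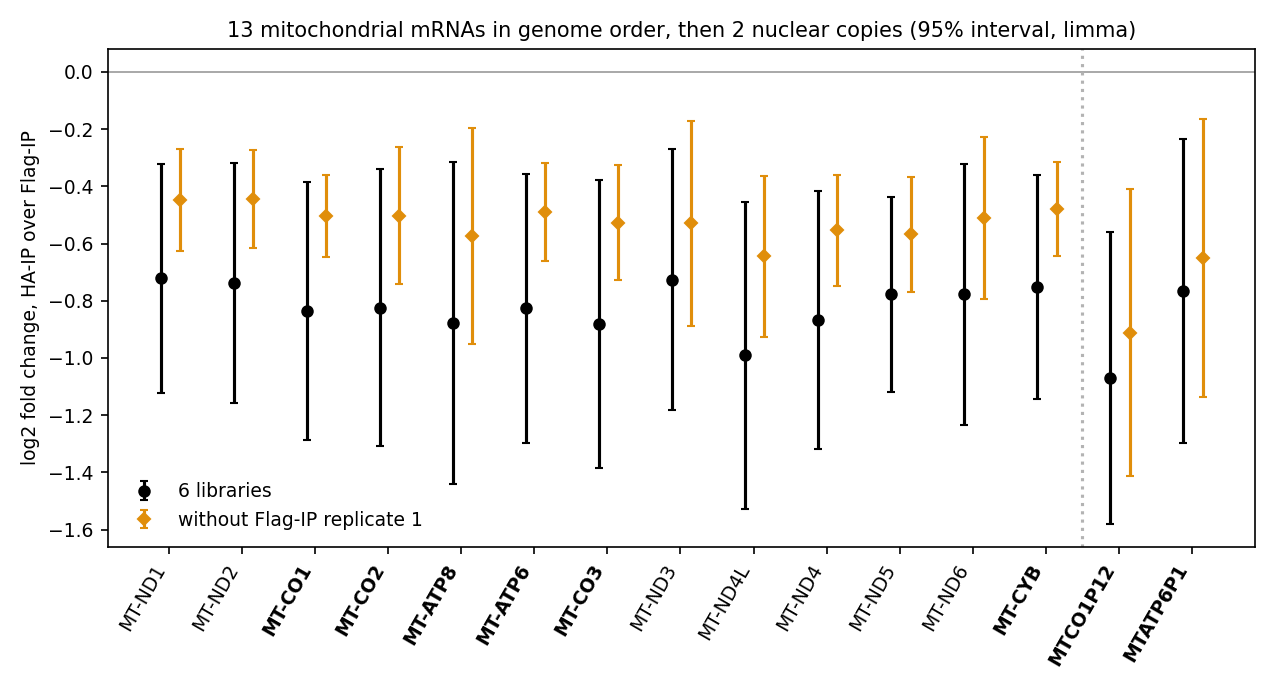
Log2 fold change (HA-IP over Flag-IP, limma, 95% interval) of the 13 mitochondrial mRNAs in genome order and of the 2 nuclear copies, with the genes described here in bold type. Black points use all 6 libraries and orange points leave out Flag-IP replicate 1, and the mRNAs of the set move from between -0.88 and -0.75 to between -0.57 and -0.48.

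Per length, MT-CO1 had the highest level. In normalized counts per kb the Flag-IP means were 35465 ± 15276 for MT-CO1, 26074 ± 11401 for MT-ATP6, 22460 ± 8896 for MT-ATP8, 19088 ± 8792 for MT-CO3, 16289 ± 6794 for MT-CO2 and 10651 ± 3744 for MT-CYB (SD, n = 3). The HA-IP means kept that order, from 18831 ± 1733 for MT-CO1 to 6124 ± 772 for MT-CYB. In the Flag-IPs the means of neighbours in this order differed by less than the larger of their SDs. In the HA-IPs this held for the neighbours from MT-ATP6 to MT-CO2, whereas MT-CO1 and MT-ATP6, and MT-CO2 and MT-CYB, differed by more than either SD. Within single libraries the whole order was present in 5 of 6. MT-CO1 was 1.30 to 1.42 times MT-ATP6 in 6 of 6 libraries, MT-CO3 1.07 to 1.21 times MT-CO2, and MT-CO2 1.31 to 1.61 times MT-CYB. MT-ATP8 was 0.958 to 1.37 times MT-CO3, the lowest ratio falling in HA-IP replicate 1, and MT-ATP6 was 1.01 to 1.54 times MT-ATP8. With 207 bases MT-ATP8 is little longer than a read of 150 bases, so its level per length is the least sure. The nuclear copies reached 99.0 ± 22.0 and 1224 ± 183 normalized counts per kb in the Flag-IPs, against 47.4 ± 13 and 760 ± 304 in the HA-IPs, for MTCO1P12 and MTATP6P1 in turn.

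**Figure D3:**
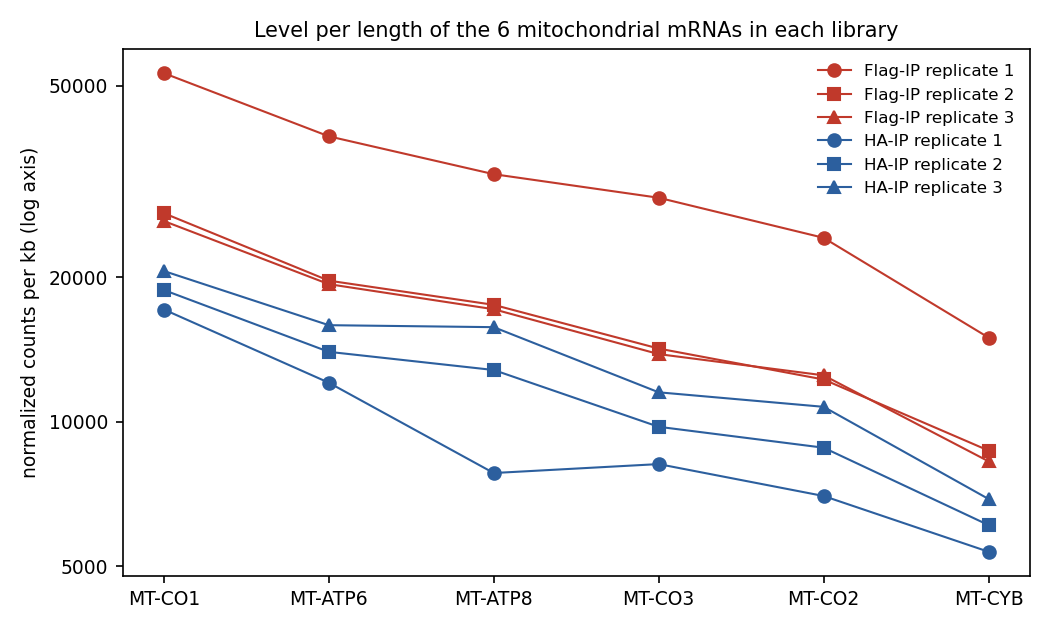
Normalized counts per kb (log axis) of the 6 mitochondrial mRNAs in each library, with lines joining the genes of 1 library, red for Flag-IPs and blue for HA-IPs. The lines run nearly in parallel, except that MT-ATP8 falls below MT-CO3 in HA-IP replicate 1.

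Ratios between the genes within a library overlapped between the tags, with log2 differences from -0.23 to 0.08. MT-CO2 stood at 0.205 ± 0.00641 of MT-CO1 in the Flag-IPs and 0.207 ± 0.0250 in the HA-IPs, MT-CO3 at 0.272 ± 0.00743 and 0.264 ± 0.0210, MT-ATP6 at 0.324 ± 0.00385 and 0.327 ± 0.0149, and MT-CYB at 0.227 ± 0.0158 and 0.240 ± 0.00821 (SD, n = 3). The ratio of MT-ATP8 to MT-ATP6, which are parts of the same mRNA, was 0.254, 0.271 and 0.270 in the Flag-IPs, against 0.197, 0.279 and 0.301 in the HA-IPs. HA-IP replicate 1 held the lowest of these ratios and also the lowest ratios of MT-CO2, MT-CO3 and MT-ATP6 to MT-CO1. MTCO1P12 was 0.00190 to 0.00377 of MT-CO1 and MTATP6P1 0.0358 to 0.0650 of MT-ATP6 across the libraries. The groups overlapped for all 7 ratios, the lowest two-sided exact permutation p being 0.30 (adjusted p = 1.0 for each of the 7), where 3 libraries against 3 cannot go below 0.1. Among the 13 mitochondrial mRNAs, MT-CO1 took 27.3 to 30.2% of the normalized counts in every library, MT-ATP6 8.91 to 9.83%, MT-CO3 7.32 to 8.43%, MT-CYB 6.28 to 7.0%, MT-CO2 5.48 to 6.31% and MT-ATP8 1.85 to 2.80%.

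The 7 mitochondrial mRNAs of complex I, the entry point of electrons from NADH, were called higher in the Flag-IPs as well (7 of 7, median log2 fold change -0.78, range -0.99 to -0.72), with MT-ND4L at -0.99 and MT-ND4 at -0.87 the largest. DESeq2 called 1 of these 7, where 7 had an unadjusted p under 0.05, and without HA-IP replicate 1 the limma adjusted p-values ran from 0.060 to 0.15. Of the 15 mitochondrial tRNA genes with values, 5 were called with the Flag-IPs higher and 0 with the HA-IPs higher, with a median of -0.51 and a range from -0.83 to 0.06. DESeq2 called 4 of the 15, and limma called 1 without HA-IP replicate 1 (median -0.15) and 0 without HA-IP replicate 2, where 6 had an unadjusted p under 0.05. Mature tRNAs carry no long poly(A) tail, and their genes lie between the mRNA genes on the same precursors. Of 4 other mitochondrial pseudogenes in the nucleus, 2 were called, both of them copies of the MT-RNR2 sequence. MTRNR2L6 had 30, 40 and 43 reads in the Flag-IPs and 1, 1 and 6 reads in the HA-IPs (log2 fold change -3.81, SE 0.57, limma adjusted p = 0.0021). MTRNR2L1 had 135, 120 and 89 reads against 8, 6 and 24 (log2 fold change -3.51, SE 0.50, limma adjusted p = 0.0015). These 2 copies had few reads in the HA-IPs, and reads from near-identical copies of MT-RNR2 cannot be placed with certainty. Their HA-IP reads alone would not have met the study's filter on low reads, so both entered through their Flag-IP reads. Entry was thus not independent of the difference between the tags that was tested.

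The partner subunits that the nucleus encodes for the same complexes had medians nearer 0. Over all genes, limma called 7.10% higher in the Flag-IPs and 5.79% higher in the HA-IPs. Of 15 nuclear COX subunits 11 had values, of which 2 favoured the Flag-IPs and 0 the HA-IPs in the test, and the median was -0.30, with all 11 below 0. COX4I1, a subunit that regulates the oxidase, had 3413 ± 298 and 2842 ± 75.4 normalized counts (SD, n = 3, log2 fold change -0.26, limma adjusted p = 0.022), and COX5A had 1782 ± 90.3 and 1502 ± 94.6 (-0.25, adjusted p = 0.029). Among 26 COX assembly factors 2 were called higher in the Flag-IPs, COA3 (-0.41) and COA1 (-0.28). In the HA-IPs 1 was called higher, TACO1 (0.40), which activates translation of MT-CO1. Both counts of assembly factors were near the shares over all genes. TACO1 had 1213 ± 214 normalized counts in the Flag-IPs and 1596 ± 149 in the HA-IPs, and the 2 groups overlapped.

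Of 18 nuclear ATP synthase subunits 4 were called with the Flag tag higher and 0 with the HA tag higher, with a median of -0.23. These stand beside 7.10% and 5.79% of all genes. ATP5MC3, one of the genes for the proton-carrying ring subunit, had 5489, 3929 and 3143 normalized counts in the Flag-IPs, against 1824, 1959 and 2318 in the HA-IPs (log2 fold change -1.01, SE 0.16, limma adjusted p = 0.0027), beyond the -0.88 of MT-CO3 and MT-ATP8. ATP5MG, another membrane subunit, had a log2 fold change of -0.75 (limma adjusted p = 0.019), which did not pass with DESeq2 (adjusted p = 0.072). In complex III the median of 9 nuclear subunits was -0.14, with 6 of the 9 below 0 as MT-CYB was. Of the 9, 0 passed with the Flag-IPs higher and 2 with the HA-IPs higher, UQCRFS1, the Rieske iron-sulfur protein (0.42, limma adjusted p = 0.020), and CYC1, cytochrome c1 (0.24, adjusted p = 0.041). DESeq2 called 2 of these 9 higher in the Flag-IPs and 2 higher in the HA-IPs, and 4 of the 11 COX subunits higher in the Flag-IPs. Neither the 6 assembly factors of complex III nor the 5 of the ATP synthase held a called gene in the limma, edgeR or DESeq2 fit. At an unadjusted limma p under 0.05 there were 3 and 0 of them. In lists this short, the absence of calls is near what the shares over all genes would give.

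Nuclear genes for mitochondrial gene expression had medians near 0 or just above it. In transcription and RNA processing 5 of 27 genes passed the test with the HA-IPs higher and 0 with the Flag-IPs higher (median 0.10). LRPPRC, which stabilises mitochondrial mRNAs, had 20629 ± 1784 normalized counts in the Flag-IPs and 26304 ± 676 in the HA-IPs (SD, n = 3, log2 fold change 0.35, limma adjusted p = 0.0046), and ELAC2, which cuts the 3′ ends of tRNAs from precursors, had a log2 fold change of 0.38 (adjusted p = 0.0095). In rRNA modification and ribosome assembly, the machinery that works on MT-RNR1 and MT-RNR2, 6 of 22 genes favoured the HA-IPs and 1 the Flag-IPs (median 0.05). DHX30, a helicase of mitochondrial ribosome assembly, was at 0.27 (limma adjusted p = 0.0052) and FASTKD2, which binds MT-RNR2, at 0.32 (adjusted p = 0.012), while MRM2, a methyltransferase of MT-RNR2, was at -0.28 (adjusted p = 0.0092). FASTKD2 was counted both in this list and in that of transcription and RNA processing. Of 15 translation factors 2 were higher in the HA-IPs, TACO1 and the elongation factor GFM1 (0.18, limma adjusted p = 0.041). Of 18 genes for mitochondrial DNA maintenance 2 were, the nuclease DNA2 (0.24, adjusted p = 0.027) and the ligase LIG3 (0.16, adjusted p = 0.045). Whether the counts of these lists exceed the share over all genes was not tested. No list of nuclear genes for mitochondrial proteins had a median below -0.30, beside -0.83 for the mitochondrial mRNAs of the set, and the difference between the lists was not tested. Without Flag-IP replicate 1 the medians were -0.19 for the nuclear COX subunits, -0.12 for the nuclear ATP synthase subunits and -0.50 for the 6 mRNAs. Of the 17 nuclear genes named here, ATP5MC3, LRPPRC and DHX30 were called in each of the 6 fits that left out a library, and the other 14 in 0 to 4 of them. Without HA-IP replicate 1, and likewise without HA-IP replicate 2, 0 of the 11 nuclear COX subunits and 1 of the 18 nuclear ATP synthase subunits were called, where 2 and 5 in the first of these fits and 4 and 4 in the second had an unadjusted limma p under 0.05.

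**Figure D4:**
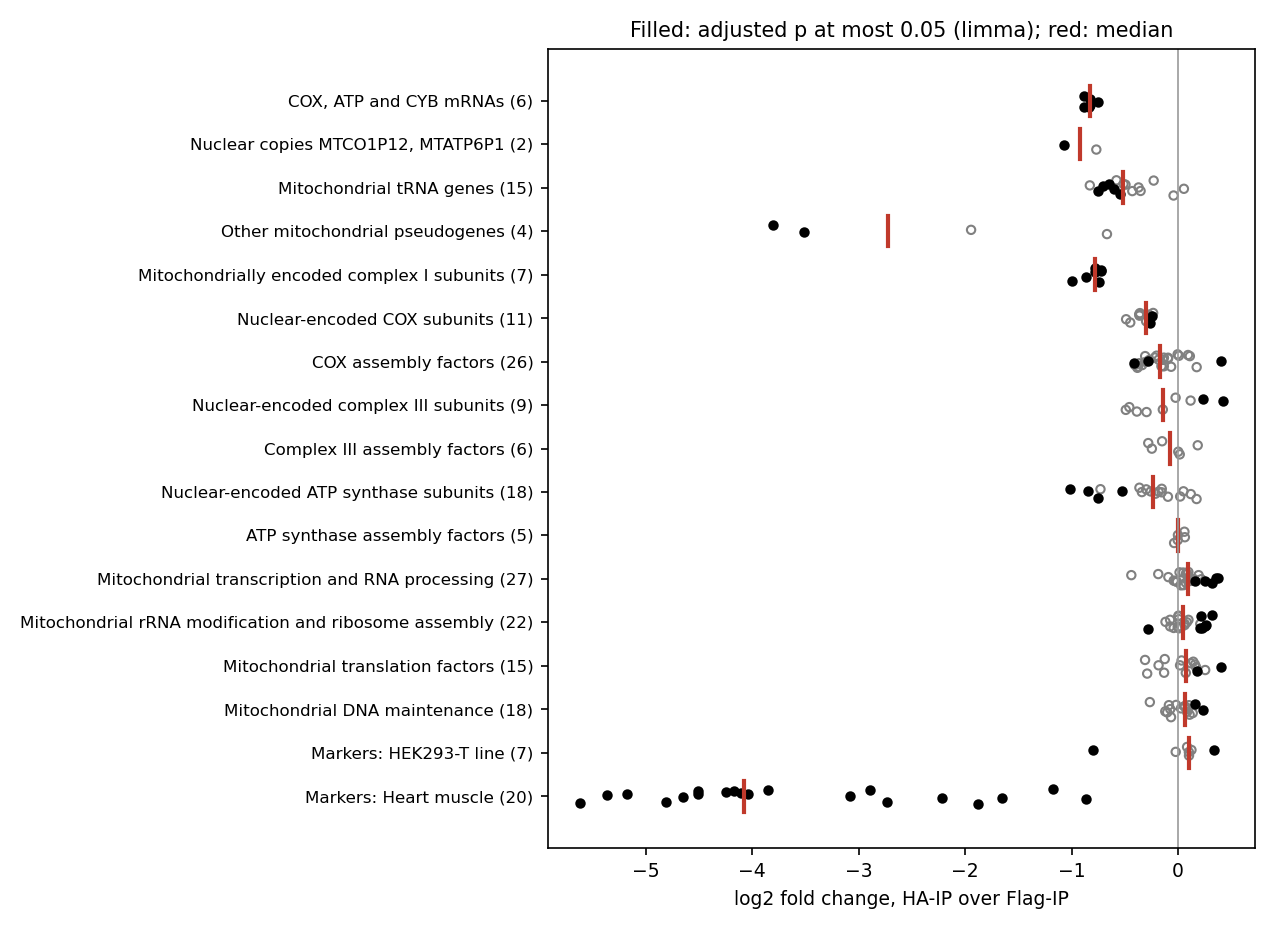
Log2 fold change (HA-IP over Flag-IP, limma) of each gene in each list, with the number of genes in brackets, called genes filled and the median of each list as a red bar. The median of the mitochondrial mRNAs lies left of those of the nuclear lists for the same complexes, which run from -0.30 to 0.00, and the heart muscle markers reach furthest left.

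The 6 mRNAs summed to 0.571, 0.294 and 0.278% of all normalized counts in the Flag-IPs, against 0.172, 0.196 and 0.221% in the HA-IPs. With the 2 copies these shares were 0.385 ± 0.165% and 0.198 ± 0.0253% (SD, n = 3). Markers of other cell types moved with the same comparison. The heart muscle list held 26 markers, of which 20 had values. Of these, 20 were called higher in the Flag-IPs (median log2 fold change -4.08), beside 7.10% of all genes. With DESeq2 17 were called (median -3.25, beside 7.31%). Without HA-IP replicate 1 limma called 14 (beside 3.30%), and without HA-IP replicate 2 it called 16 (beside 3.75%). They summed to 0.483, 0.348 and 0.222% of the Flag-IPs and 0.00949, 0.00633 and 0.0441% of the HA-IPs. MYH7, a myosin heavy chain of heart and slow muscle, had 83895, 65504 and 42902 normalized counts in the Flag-IPs, against 1031, 478 and 6766 in the HA-IPs, and CSRP3 was at 0 in HA-IP replicates 1 and 2. Heart markers with few HA-IP reads, CSRP3 among them, met the study's filter on low reads only with their Flag-IP reads. Within the Flag-IPs, replicate 1 was the highest and replicate 3 the lowest in both sums. In the HA-IPs both sums were highest in replicate 3, while the heart markers were lowest in replicate 2 and the mitochondrial mRNAs in replicate 1. Heart muscle is rich in mitochondria, and the part of the heart markers in the mitochondrial result was not tested. Fibroblast markers were called higher in the Flag-IPs for 6 of 7 genes with values (0.0205 to 0.0294% against 0.00863 to 0.0106%). Endothelial markers were called so for 3 of 5 with values and blood markers for 2 of 2. These 3 lists held 8, 7 and 5 genes in turn, and the same filter applied to them. No neuron marker was called (0 of 5 in the limma, edgeR and DESeq2 fits, 0 of 5 at an unadjusted limma p under 0.05), and of the liver markers 0 had values. Of the HEK293-T markers PAX2 was called higher in the Flag-IPs (-0.79, limma adjusted p = 0.047) and EPCAM in the HA-IPs (0.34, adjusted p = 0.0029). The call of PAX2 was lost in each of the 6 fits that left out a library, and that of EPCAM in 0 of them.

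**Figure D5:**
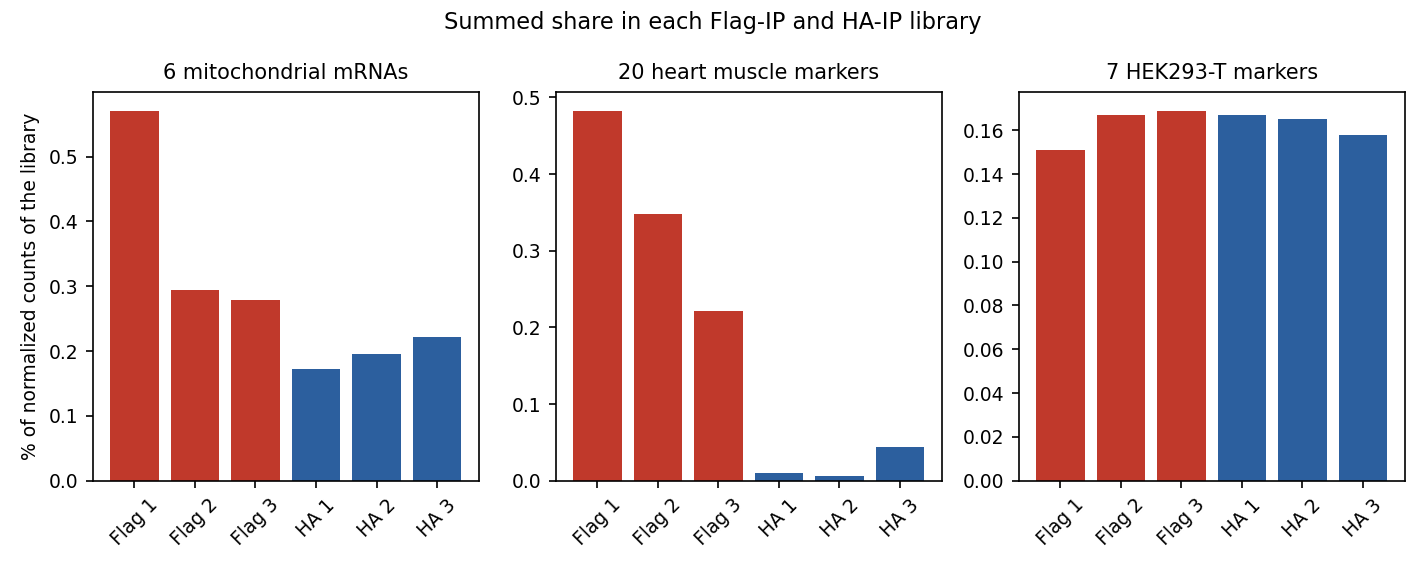
Percent of the normalized counts of each library (linear axes from 0, a scale for each panel) taken by the 6 mitochondrial mRNAs, by 20 heart muscle markers and by 7 HEK293-T markers. The first 2 sums are higher in each Flag-IP than in each HA-IP and highest in Flag-IP replicate 1, while the HEK293-T markers stay between 0.151 and 0.169%.

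Among 5946 genes whose mean reached 1000 normalized counts, taken from outside the mitochondrial genome and its nuclear pseudogenes, the 5 with the profile most like that of the 6 mRNAs were RPL37, RPS15A, RPL34, RPL32 and RPL26, all genes for proteins of the cytosolic ribosome. Likeness was the Euclidean distance over the 6 libraries between log2 values centred on their mean, and it ran from 0.262 for RPL37 to 0.403 for RPL26. The 6 mRNAs themselves lay between 0.0799 (MT-CO2) and 0.373 (MT-ATP8) from their mean profile. Each of them is part of that mean, which lowers its distance. The 2 copies lay at 0.631 and 0.758, and the 7 complex I mRNAs between 0.133 (MT-ND4) and 0.459 (MT-ND3). RPL37 had 5437, 3562 and 3001 normalized counts in the Flag-IPs, against 1855, 2362 and 2767 in the HA-IPs. As in the mitochondrial mRNAs and the 2 nuclear copies, though not in all mitochondrial tRNA genes, replicate 1 was the highest Flag-IP and the lowest HA-IP. These genes were picked for their likeness, so their own fold changes are no further evidence.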

How the data were processed

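Poly(A) RNA from 3 Flag-IPs and 3 HA-IPs was sequenced by the authors as paired reads of 150 bases. Per the labels and the study's methods, reads were trimmed with Trimmomatic 0.36 and aligned to GRCh38 with STAR 2.5.2b. They were counted per gene with featureCounts (Subread 1.5.2) and normalized with DESeq2. The study's filter is read here as leaving out genes without at least 10 reads in at least 3 samples. The strand setting, the handling of reads that map to several places and the annotation release are not given in the sources used here, so reads of overlapping or antisense genes cannot be told apart. The deposited values are a signal per gene, that is, reads divided by a size factor for each library. Dividing by the step between values gave whole reads for 100% of values in each library (tolerance 0.001 read), with size factors from 0.770 to 1.42. Deposited columns with the authors' own log2 fold changes and adjusted p-values were not used.

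Groups came from the sample labels. The test was limma 3.58.1 with a variance trend on log2(normalized counts + 1), two-sided, fitted to all 16834 genes without a filter, with Benjamini-Hochberg adjustment and a threshold of 0.05. The fold change of a low gene is understated by the added 1. Ratios between genes were compared with two-sided exact permutation tests over the 6 libraries. Alternatives were pseudocounts of 0.1 and 10, a mean of at least 50, quantile normalization, equal totals (over all genes and over nuclear genes), equal upper quartiles, no variance trend, a replicate block, edgeR 4.0.16 and DESeq2 1.42.0 on recovered reads, and leaving out each library. Fits were tested on simulated data with 200 changed genes. The genes described and the gene lists were chosen with earlier results of these data known. Named were all genes of the set, the 2 complex I genes and the 2 other mitochondrial pseudogenes with the largest change, from each nuclear list the 2 called genes of lowest adjusted p that were higher under either tag, and the 5 genes of most similar profile among those with a mean of at least 1000. MTRNR2L10, MYH7, CSRP3, KRT8, VIM, PAX2 and EPCAM were named after their values were seen. Sequences and gene positions were read from hg38 with GENCODE release 44.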

Additional observations from a re-analysis of the deposited data

How the results depend on the processing

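The direction of the 8 genes (higher in the Flag-IPs) was the same in all 136 combinations of gene and alternative. Of these, 100 kept their side of the threshold, 33 lost the call and 3 gained it. The groups did not overlap for any of the 8 genes, so most alternatives, such as leaving out a library, could not have reversed a sign. The shared direction is therefore no further evidence. The median log2 fold change of the 8 genes stayed between -0.90 and -0.83 over all alternatives that kept the 6 libraries and ranged from -1.01 to -0.52 when 1 library was left out, the smallest being without Flag-IP replicate 1. The number called, 7, was 1 with DESeq2 and 0 without the variance trend (6 at an unadjusted p under 0.05), and ranged from 0 to 8 when 1 library was left out. Over all genes the count of 2171 was 188 without the variance trend and ranged from 620 (without Flag-IP replicate 2) to 3059 (without Flag-IP replicate 3). The causes were not tested. With 1 library left out, log2 differences of ratios ranged from -0.07 to 0.10 for MT-CO2 to MT-CO1, -0.10 to 0.01 for MT-CO3 to MT-CO1, -0.02 to 0.05 for MT-ATP6 to MT-CO1, -0.17 to 0.13 for MT-ATP8 to MT-ATP6 and -0.16 to 0.32 for MTATP6P1 to MT-ATP6, changing sign, and MT-CYB to MT-CO1 (0.03 to 0.12) and MTCO1P12 to MT-CO1 (-0.41 to -0.04) kept theirs. Ratios with MT-RNR1 and MT-RNR2 were not run.

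The Flag-IPs and HA-IPs share replicate numbers, but libraries of the same number did not deviate together (r across genes of -0.156, 0.0306 and -0.31), and 1 of 3 Flag-IPs correlated best with the HA-IP of its own number. With a replicate block 3 of the 8 genes were called (MT-CO1, MT-CYB and MTCO1P12) and 1662 genes in all. The fewest reads on any of the 8 genes in a library were 71, on MTCO1P12, and the part of counting error in the spread between libraries was not tested.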
